A study of Mus musculus with 6 samples.

Results

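The genes described here encode the subunits, activators, inhibitor and assembly chaperones of the proteasome, measured in poly(A)-selected RNA from mouse RPE/choroid. They were chosen by gene symbol alone, as the symbols that begin with Psm followed by a letter from a to g and a digit. Symbols that contain -ps were left out. This rule found 49 of the 33924 genes in the authors' table, and in 48 of the 49 the mean normalized count was 10 or more. The nearest member inside this limit was Psma8 with a mean of 94.9, and the only member outside it was Psmb11 with a mean of 6.41. One match, Psmc3ip (mean 193), carries the name of a subunit whose protein it binds and is not itself a proteasome subunit, so it is left out of every group below. Of the other 48 genes, 47 had a mean of at least 10.

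RPE, the retinal pigment epithelium, was collected with the choroid from young and from aged wild-type mice of the inbred strain C57BL/6J, with 3 samples per age. Each sample pooled both eyes, and neither group had a treatment or an altered allele. The sample titles give 1 to 2 months for the young and 20 to 24 months for the aged mice, the age field gives 22 to 24 months for the aged mice, and all mice are labelled male. The methods of the study give slightly older young mice and both sexes. The value used for each gene is the authors' mean of the normalized counts over the libraries of both ages. It has no spread and no number of mice attached, so levels are set side by side without a test and the ages are not compared.

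The proteasome is the barrel-shaped protease that degrades ubiquitin-tagged proteins in the cytosol and nucleus. Its 20S core is built from rings of alpha and beta subunits, with the catalytic sites on 3 of the beta subunits, and the 19S regulatory particle caps the core, binds ubiquitin and unfolds the substrate. In cells of the immune system, and in other cells after interferon-gamma, inducible subunits take the catalytic places and form the immunoproteasome, which favors peptides that fit MHC class I. The RPE is a long-lived, non-dividing epithelium that takes up and digests photoreceptor outer segments, and the choroid beneath it holds vessels, melanocytes and resident macrophages.

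The authors' means of all genes add up to 40816668, and the depth of single libraries is unknown. Markers of RPE were abundant, with means of 113930 for Rpe65, 102636 for Rlbp1 and 50958 for Lrat, although Best1 had a mean of only 81.8. Pigment cell genes such as Dct (256984) and endothelial genes, from Cdh5 (717) to Kdr (7369), were read as well. All 5 leukocyte and macrophage markers were read, with means from 1014 for Aif1 to 5719 for Csf1r and 2659 for Ptprc. Rod genes such as Sag (46603) and skeletal muscle genes such as Myh4 (48944) were also read, although the retina and the muscles had been removed in dissection. The 5 lymphocyte markers were low, with means from 2.40 for Cd3e, a defining T cell gene, to 202 for Cd4, which macrophages can also carry. The part of each cell type in the levels below was not tested, and in a tissue sample more cells of a type and more RNA per cell cannot be told apart.

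Proteasome genes were among the abundant transcripts of RPE/choroid. Together the 47 genes held 0.490% of all normalized counts, and the 31 constitutive subunits of the 20S core and the 19S particle held 0.430%. To compare genes, each mean was divided by the length of the gene's transcript in kilobases, taken as the median over its annotated protein-coding transcripts. On this scale the 47 genes lay at a median percentile of 89.9 among the 17944 genes with a mean of at least 10 and a known length. All but Psma8 (46 of 47) were above the median gene, which had 314 counts per kb, and 37 were at percentile 80 or more. Among the 31 constitutive subunits, 21 were at percentile 90 or more.

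**Figure D1:**
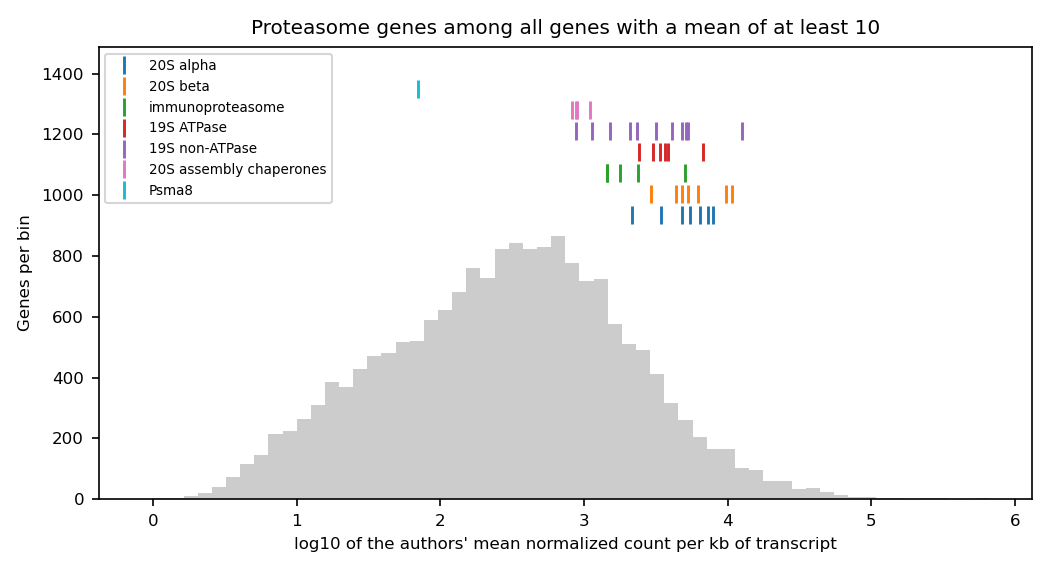
Distribution of the authors' mean normalized count per kb of transcript (log10, x axis) over genes with a mean of at least 10, as genes per bin (y axis, grey bars), with proteasome genes of 7 groups as coloured ticks above it, 1 row for each group. Most constitutive core and regulatory subunits sit in the upper tail of all genes, and Psma8 lies below the median gene of 314 counts per kb. The 20S assembly chaperones lie lower than most, close to the regulatory subunits Psmd11 (875 counts per kb) and Psmd7 (1135).

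The authors derived the normalized counts from TPM values, which are scaled by transcript length, and whether the deposited means still grow with length is not known. If they do not, division by length corrects for it again, so the means as deposited are given as a further scale, on which the 47 genes lay at a median percentile of 87.2.

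The length matters for some members. The annotation lists short coding fragments for several genes, which lowers the median length, so each level was also divided by the length of the longest coding sequence. Relative to the median shift over the 47 genes, 10 genes moved by more than 1.5 times with that length. The largest moves were in Psme4 and Psmd2, whose median annotated transcripts are 657 and 659 bases long and whose coding sequences are 5529 and 2724 bases long. Their levels are therefore given below per kb of coding sequence beside the level per kb of transcript.

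The 7 alpha subunits of the core, which form its outer rings and gate, had a median of 5435 counts per kb of transcript. Psma3 was highest with 7885, followed by Psma7 with 7248, Psma4 with 6453 and Psma1 with 5435. Psma6 had 4821 and Psma2 had 3424, and Psma5 was lowest with 2156. The highest alpha subunit was 3.66 times the lowest per kb of transcript and 2.81 times per kb of coding sequence. Psma5 was the lowest on both scales, but copies of it, described further on, were read too, so its place is uncertain. Psma2, which has a long annotated transcript, was the highest per kb of coding sequence with 10398. The place of Psma3 depends on the length too, as it had 2380 counts per kb of its longest transcript, the second lowest of the alpha subunits on that scale, and a copy of the gene described further on was read almost as much. In the means as deposited Psma7 led with 7505. Psma8, the alpha subunit of the testis proteasome and paralog of Psma7, had 69.9 counts per kb of transcript and lay at percentile 24.4.

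The 7 constitutive beta subunits had a median of 5275 counts per kb of transcript, close to that of the alpha subunits (ratio of the alpha to the beta median 1.03). Psmb6, the caspase-like catalytic subunit, was highest with 10678 and Psmb4, a structural subunit of the inner ring, followed with 9709. Psmb7, the trypsin-like catalytic subunit, had 6194, and Psmb5, the chymotrypsin-like catalytic subunit, had 4843. The structural subunits Psmb1 and Psmb3 had 5275 and 4389, and Psmb2 was lowest with 2942. Thus the mean mRNA levels of the 3 constitutive catalytic subunits, which sit in the core in equal number, were not equal. Psmb6 was above Psmb7 and Psmb7 above Psmb5 on both length scales. A copy shares part of the sequence of Psmb5, as described further on, and its part in this order was not tested. Per kb of coding sequence Psmb4 led with 14502, ahead of Psmb1 with 12880 and Psmb6 with 11934. As no spread is known, it could not be tested whether neighbours in these orders differ.

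**Figure D2:**
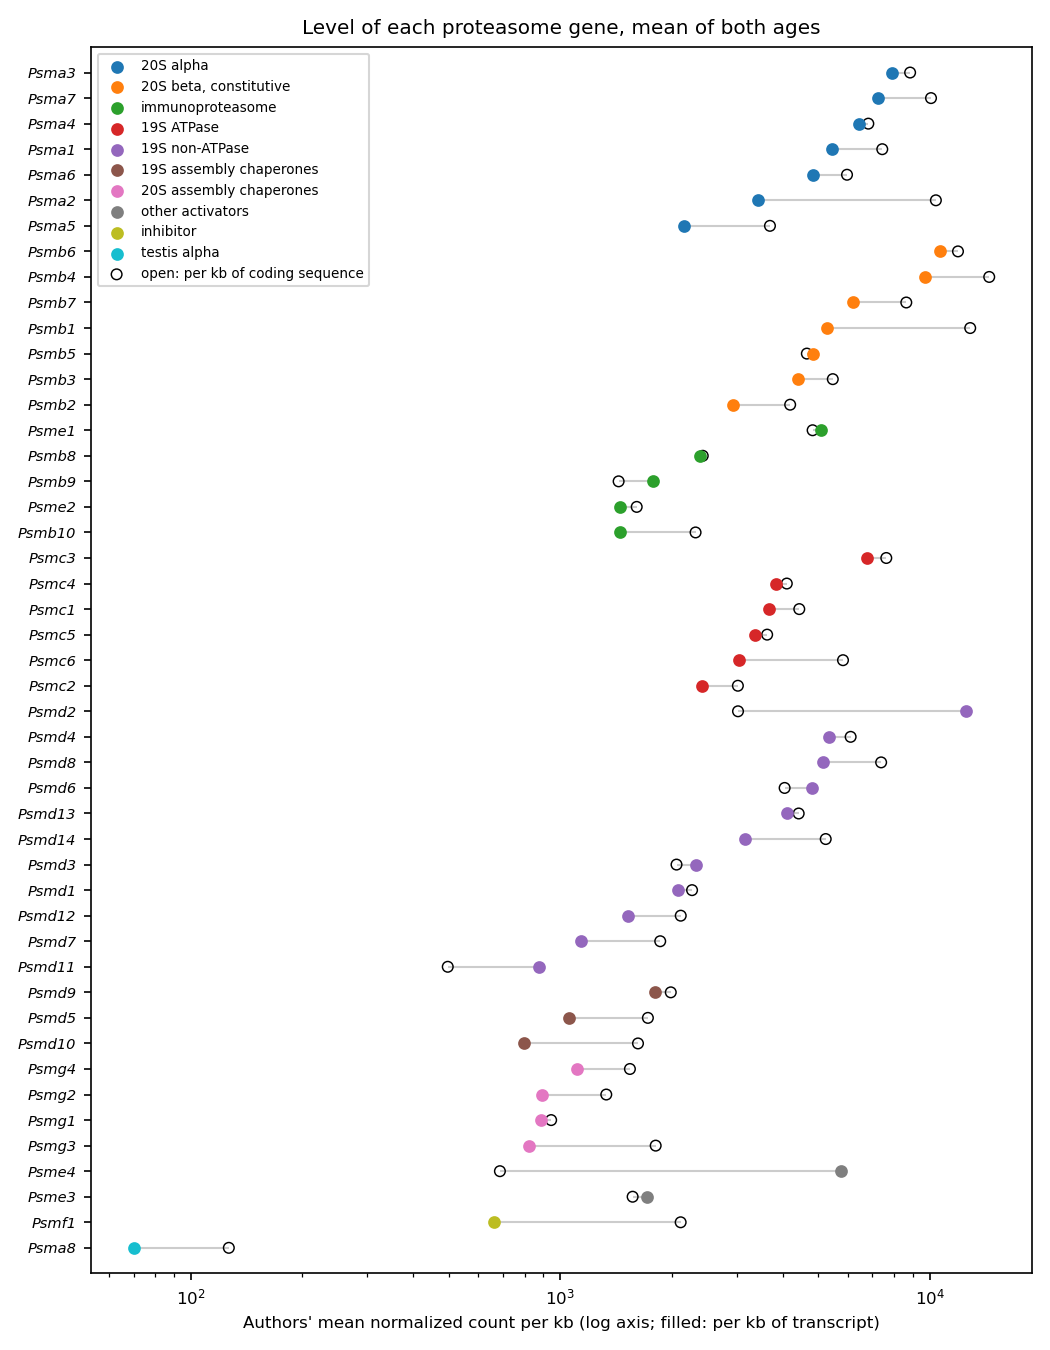
Level of each of the 47 proteasome genes with a mean of at least 10 as the authors' mean normalized count per kb (log x axis), grouped by role, with filled points per kb of transcript and open points per kb of coding sequence. Core subunits lie to the right of the 20S assembly chaperones, and the gap between filled and open points is widest in Psme4 and Psmd2.

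The 19S particle was lower than the core at the level of mRNA. Over its 17 subunits the median was 3360 counts per kb of transcript against 5355 over the 14 constitutive core subunits, a ratio of core to 19S of 1.59. This ratio was 1.99 per kb of coding sequence and 1.27 in the means as deposited. The 6 ATPases, which form the ring that unfolds the substrate, had a median of 3521 per kb of transcript. Psmc3 was highest with 6760 and Psmc2 lowest with 2415, a ratio of 2.80, and the 4 ATPases between them, Psmc4, Psmc1, Psmc5 and Psmc6, lay between 3835 and 3044.

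The 11 non-ATPase subunits varied more than any other group, with a ratio of highest to lowest of 14.3 per kb of transcript and 14.9 per kb of coding sequence. Psmd2, a scaffold subunit of the base, led with 12515 per kb of transcript, but had 3028 per kb of coding sequence. Psmd4, a ubiquitin receptor, had 5328 per kb of transcript and Psmd8, a lid subunit, had 5129. Psmd14, the deubiquitinase that removes ubiquitin chains before degradation, had 3157, whereas Psmd7, its inactive partner in the lid, had 1135. Psmd6 and Psmd13, also of the lid, had 4814 and 4103, and the scaffold subunit Psmd1 had 2088. Psmd3 had 2332 and Psmd12 had 1522. Psmd11, a lid subunit, was the lowest of the constitutive subunits on both scales, with 875 per kb of transcript and 495 per kb of coding sequence, from a mean normalized count of 627. The next lowest non-ATPase subunit on both scales was Psmd7, with 1864 per kb of coding sequence.

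Most of the factors that assemble the particle were lower still. Psmg1, Psmg2, Psmg3 and Psmg4, the chaperones that build the alpha ring, lay close together between 821 and 1107 counts per kb of transcript, with means of 819 (Psmg1), 1055 (Psmg2), 663 (Psmg3) and 569 (Psmg4). The median of the alpha subunits was 6.11 times the median of these chaperones. Psmd9, Psmd5 and Psmd10, chaperones of the 19S base that are not part of the finished particle, had 1804, 1054 and 797 per kb of transcript. Pomp, the maturation factor of the core, stood apart from the other assembly factors with a mean of 5177 and 3279 counts per kb of transcript.

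The alternative caps were read at unequal levels. Psme3, which forms a nuclear activator ring, had a mean of 1196 and 1713 counts per kb of transcript. Psme4, a single large protein that caps the core and acts on histones in chromatin, had a mean of 3792, which is 5772 per kb of transcript but 686 per kb of coding sequence, against 1569 for Psme3 on the latter scale. Which of both activators is higher therefore depends on the length. Psmf1, an inhibitor and adaptor of the proteasome, had a mean of 1721, with 663 counts per kb of transcript and 2117 per kb of coding sequence.

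The 3 inducible catalytic subunits of the immunoproteasome were read in RPE/choroid at a median level below that of the constitutive subunits. Psmb8 (LMP7), which takes the place of Psmb5, had a mean of 2012 and 2395 counts per kb of transcript. Psmb9 (LMP2), which takes the place of Psmb6, had a mean of 945 and 1786 per kb. Psmb10 (MECL-1), which takes the place of Psmb7, had a mean of 1903 and 1452 per kb. Per kb of coding sequence Psmb10 (2324) was above Psmb9 (1438), the reverse of their order per kb of transcript. Per kb of transcript the median of the 3 inducible subunits was 1786, below the median of 4389 over the 31 constitutive subunits, a ratio of 2.46. This ratio was 2.25 per kb of coding sequence and 2.81 in the means as deposited. Per kb of transcript, 25 of the 31 constitutive subunits were above all 3 inducible catalytic subunits and 29 were above at least 1. Psmd7 and Psmd11 were below all 3 on this scale. Per kb of the longest transcript, per kb of coding sequence and in the means as deposited, 30 were above at least 1. On those scales Psmd7 was above Psmb9, with 1864 against 1438 per kb of coding sequence, and Psmd11 stayed below all 3.

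Each inducible subunit was lower than the constitutive one it replaces. Psmb5 was 2.02 times Psmb8 per kb of transcript, Psmb6 was 5.98 times Psmb9 and Psmb7 was 4.27 times Psmb10. Expressed as a share of each pair, Psmb8 made up 33.1%, Psmb10 18.99% and Psmb9 14.3%. This order, with Psmb8 first and Psmb9 last, was found on each of the 4 scales tried (median transcript, longest transcript, coding sequence and no length). With the longest transcript the share of Psmb9 was 6.14% and that of Psmb8 was 23.2%. Summed over the 3 pairs, inducible subunits made up 20.6% of catalytic subunit mRNA per kb of transcript, 19.7% per kb of coding sequence, 20.0% in the means as deposited and 13.9% per kb of the longest transcript. These shares are of mRNA, over the libraries of young and aged mice together, and give no measure of assembled particles. The leukocyte genes given above were read in the same libraries, and their part in these shares was not tested.

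**Figure D3:**
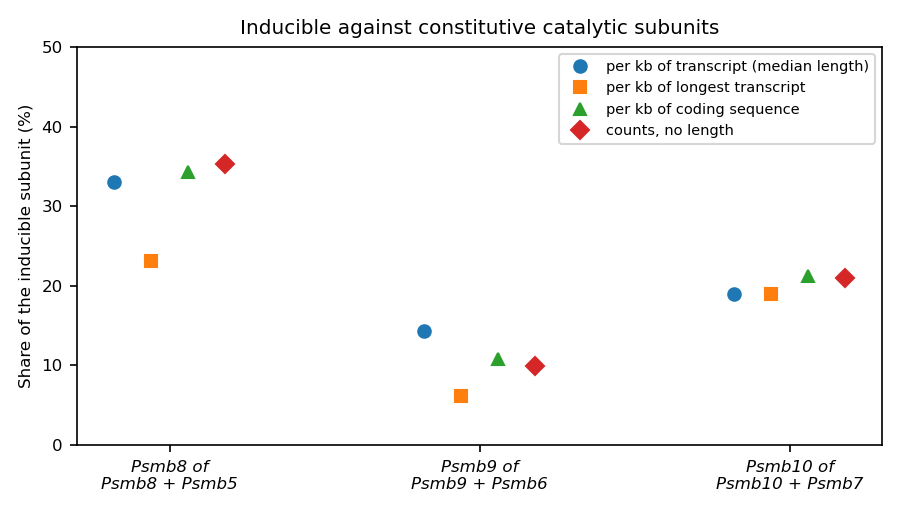
Share of each inducible catalytic subunit in the sum of itself and the constitutive subunit it replaces (percent, y axis), for the 3 pairs (x axis) and 4 ways of scaling the authors' mean normalized counts. On each scale Psmb8 has the largest share, 33.1% per kb of transcript, and Psmb9 the smallest, 14.3%.

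The subunits of each pair differ in sequence. In the GENCODE annotation of GRCm38, the coding sequences of Psmb5 and Psmb8 were identical at 66.8% of aligned bases, those of Psmb6 and Psmb9 at 66.2% and those of Psmb7 and Psmb10 at 63.3%. The longest run of identical bases in these pairs was 18. The transcripts of each gene were also cut into all their runs of 50 bases, here named words, and a word was counted as own where no other annotated gene held it. For each of Psmb8, Psmb9 and Psmb10 all words (100%) were own. Of the words of Psmb5, the partner of Psmb8, only 45.9% were own, and 46.8% were also in the processed pseudogene Gm3375, for which no mean was used here. The part of this copy in the share of Psmb8 was not tested.

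In GRCm38, Psmb9 occupies chr17:34181987-34187764 (minus strand) and Psmb8 occupies chr17:34197721-34201454 (plus strand). Between them lies Tap1, which encodes a subunit of the pump that carries proteasome products into the endoplasmic reticulum. The gene models of Psmb9 and Tap1, on opposite strands, overlap by 212 bases, and 495 bases separate Tap1 from Psmb8. The kit that the study's methods name for rRNA-depleted RNA keeps strand. Whether the quantification of these libraries used strand is not given in the sources used here, so reads from the overlap cannot be assigned with certainty. Tap1 had a mean of 1716, with 790 counts per kb of coding sequence, against 1438 for Psmb9 and 2430 for Psmb8 on the same scale. Psmb10 lies apart, at chr8:105935735-105938444 (minus strand).

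Promoter windows, of 250 bases before and 50 bases after the start of the gene in RefSeq (GRCm38.p6), were at hand for 40 of the 48 genes. The windows of Psmb9 and Tap1 share 275 bases, as both genes start from the same stretch in opposite directions. Windows of 3 inducible genes are printed, because Psmb9 shares its start with Tap1 and the others hold a motif of the interferon pathway. The GENCODE models of these 3 genes begin further upstream than the RefSeq starts. By the GENCODE bounds given in this report, each printed window therefore lies inside its gene and not before it. Capitals mark CCAAT, here as its complement, at base 243 of the Psmb9 window (chr17:34187281-34187580, minus strand), the GAS motif TTCNNNGAA at base 154 of the Psmb8 window (chr17:34197945-34198244, plus strand) and the interferon-stimulated response type motif GAAANNGAAA, as its complement, at base 260 of the Psme1 window (chr14:55578244-55578543, plus strand).
Psmb9: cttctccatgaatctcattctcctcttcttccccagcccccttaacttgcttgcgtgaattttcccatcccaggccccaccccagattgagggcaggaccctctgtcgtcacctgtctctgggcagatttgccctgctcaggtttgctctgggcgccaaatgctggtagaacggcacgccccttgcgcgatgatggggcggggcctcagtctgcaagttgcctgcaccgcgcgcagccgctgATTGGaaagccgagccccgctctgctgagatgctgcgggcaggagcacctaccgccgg
Psmb8: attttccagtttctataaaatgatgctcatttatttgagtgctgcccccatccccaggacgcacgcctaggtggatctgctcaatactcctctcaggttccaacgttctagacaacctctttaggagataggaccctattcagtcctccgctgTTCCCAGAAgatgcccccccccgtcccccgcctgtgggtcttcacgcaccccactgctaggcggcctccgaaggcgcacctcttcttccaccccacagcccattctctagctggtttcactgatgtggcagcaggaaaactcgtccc
Psme1: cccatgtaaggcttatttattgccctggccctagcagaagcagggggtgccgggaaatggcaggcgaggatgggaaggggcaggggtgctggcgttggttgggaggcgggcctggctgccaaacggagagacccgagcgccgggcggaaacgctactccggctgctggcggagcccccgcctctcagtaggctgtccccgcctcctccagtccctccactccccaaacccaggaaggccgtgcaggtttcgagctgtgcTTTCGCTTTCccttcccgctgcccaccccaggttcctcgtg

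Both strands were searched, and matches of different motifs may overlap. The GAAANNGAAA motif was in 3.44% of all 32851 windows and in 11.6% of the 43 windows of proteasome genes. The latter were windows of Psmb3, Psmd4, Psmd9, Psme1 and Psmg4, so of 1 of the 5 immunoproteasome genes. The GAS motif was in 8.30% of all windows and in 6.98% of those of proteasome genes, namely Psmb8, Psmd2 and Psmg1. CCAAT was in 37.4% of all windows and in 32.6% of the 43 windows of proteasome genes. The motif TGACNNNGC, the core of the antioxidant response element bound by the factors of the Nfe2l1 and Nfe2l2 genes, was in 12.4% of all windows and in those of Psmb5, Psmb6, Psmc6, Psmd9, Psmd12 and Psme4. The windows of constitutive and other proteasome genes held a median of 20 CpG dinucleotides, those of immunoproteasome genes 11.5 and all windows 7. These are descriptions of letters in a window, not of binding.

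Psme1 and Psme2 encode the alpha and beta subunits of the interferon-inducible PA28 activator, which are built into the same ring. They lie close together, Psme1 at chr14:55578123-55581529 (plus strand) and Psme2 at chr14:55587441-55591113 (minus strand), 5911 bases apart. Emc9, on the minus strand, lies between them and overlaps the end of Psme1 by 14 bases. Psme1 had a mean of 3601 and 5065 counts per kb of transcript, the highest of the immunoproteasome genes. Psme2 had a mean of 1154 and 1452 counts per kb, so Psme1 was 3.49 times Psme2. However, the table also lists Psme2b-ps with a mean of 2714, which is 2.35 times that of Psme2.

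Psme2b-ps is the older symbol of Psme2b, annotated as protein-coding at chr11:48945354-48946190 (minus strand). Its coding sequence is as long as that of Psme2, with 717 bases, of which 712 are identical. The 5 differences, counted from 1 at the first coding base and written with the Psme2 base first, are C312T, A369G, C489T, C519T and C543T. The stretch of coding bases 454 to 543 is printed for both because most of the differences fall within it, and capitals mark the bases that differ.
Psme2: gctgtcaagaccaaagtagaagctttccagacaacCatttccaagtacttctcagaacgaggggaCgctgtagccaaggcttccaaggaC
Psme2b: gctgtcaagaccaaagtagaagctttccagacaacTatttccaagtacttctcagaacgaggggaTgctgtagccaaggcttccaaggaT

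The longest run of identical coding bases in the pair is 311, longer than a single read of these libraries, so many reads fit both genes equally and their division between Psme2 and Psme2b-ps rests on the authors' quantification. Of the words of 50 bases of Psme2, 54.9% are also in Psme2b. With the mean of Psme2b-ps added, Psme2 came to 3868. In the means as deposited, Psme1 was 0.931 times this sum and 3.12 times the mean of Psme2 alone. The level of Psme2 and its order relative to Psme1 are therefore uncertain.

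Other members have copies too. Of the 47 genes, 27 had only own words and in 36 at least 90% of the words were own. The 4 genes below 50% were Psmb3 (44.2%), Psme2 (45.1%), Psma5 (45.5%) and Psmb5 (45.9%). In 10 genes at least 10% of the words occurred in 1 other annotated gene, and 8 of these had such a copy with a line in the table. Gm13835, a processed pseudogene of Psma3 on chromosome 6, had a mean of 5784 beside 6774 for Psma3, which is 46.1% of their sum. For Psma5, the lowest of the alpha subunits by its own mean, the processed pseudogenes Gm8394 and Gm12989 had means of 1243 and 881. The 3 genes together came to 4795, 1.80 times Psma5 alone and above the mean of Psma6 (4409), so the place of Psma5 is uncertain. Gm6542 had a mean of 929 beside Psma4 and Gm4950 a mean of 693 beside Psmb3. For Psmc1 and Psmd2 the copies Gm9575 and Gm5422 had 461 and 459, and the copy of Psmd11, Gm14048, had a mean of 0. AC114990.1 held 39.9% of the words of Psmb3. Gm26938 held 21.8% of the words of Psmg3, but it overlaps Psmg3 by 2816 bases on the same strand and is no separate copy. Both genes were compared by sequence and, like Gm3375, no mean was used for them. Genes on the same strand also lie within the bounds of Psma2 (AW209491, mean 808) and Psmd13 (the pseudogene Gm15542, mean 3439).

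**Figure D4:**
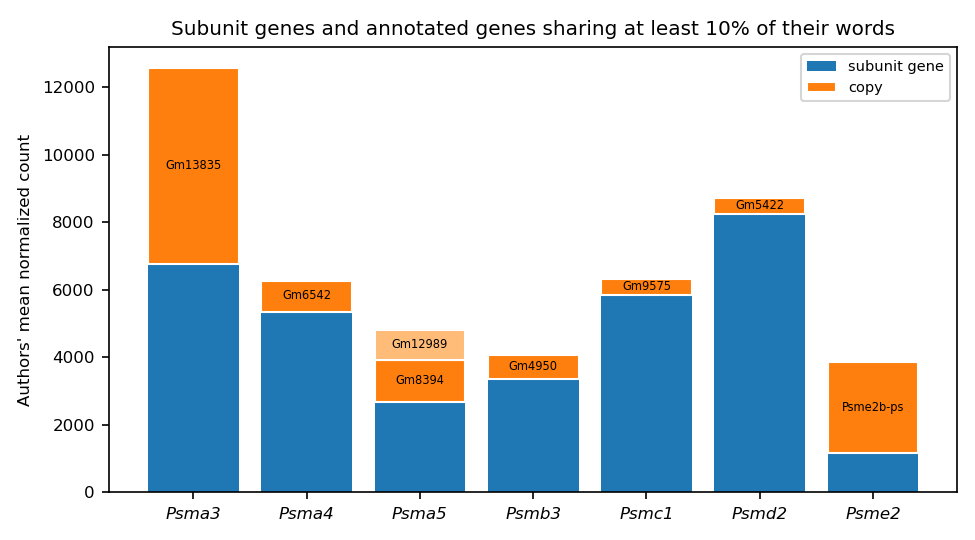
Authors' mean normalized count (y axis) of 7 proteasome genes (blue) with that of annotated genes that hold at least 10% of their words of 50 bases stacked on top (orange). In Psme2 and Psma3 the copy holds 70.2% and 46.1% of the sum, and in Psma5 the 2 copies add up to 2124 beside 2671.

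Of the genes outside the rule that work with the proteasome, the 26S subunit Shfm1 (now Sem1) had a mean of 6012 and the ubiquitin receptor Adrm1 a mean of 1621. The deubiquitinases that bind the 19S particle, Usp14 and Uchl5, had means of 1903 and 868, the ubiquitin ligase Ube3c had 2959 and the proteasome-bound thioredoxin Txnl1 had 4928. AI314180 (now Ecpas), a proteasome adaptor, had 4438. Nfe2l1, the transcription factor that raises subunit genes when proteasome activity falls, had a mean of 12134 and 5451 counts per kb of coding sequence. The related factor Nfe2l2 had 1661 counts per kb of coding sequence, and Ddi2, the protease that activates the Nfe2l1 protein, had 1461.

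Genes downstream and upstream of the immunoproteasome were read too. B2m, the invariant light chain of MHC class I, had a mean of 27583 and 77264 counts per kb of coding sequence. On the same scale the genes that load, trim or carry its peptides were lower, with 2575 for Tapbp, 1107 for Erap1, 790 for Tap1 and 576 for Tap2. Psmb8 (2430) and Psmb10 (2324) lay just below Tapbp and above the other 3 on this scale. The order depends on the length. Per kb of transcript, Erap1 (6019) and Tap2 (3212) were above Psmb8 (2395) and Psmb10 (1452), and Tap1 (657) was below both. In the means as deposited, Erap1 (3088) was above Psmb8 (2012) and Psmb10 (1903), and Tap1 (1716) and Tap2 (1214) were below them. Irf1, a transcription factor of the interferon response, had a mean of 3027. Nlrc5, the transactivator of MHC class I genes, had a mean of 471 and lay at percentile 26.6 per kb of transcript.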

How the data were processed

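RPE/choroid RNA of 3 young and 3 aged mice was sequenced as poly(A)-selected libraries. Per the study's methods, the authors used BBDuk for trimming, STAR for mapping to Ensembl transcripts of GRCm38 and Sailfish for quantification as TPM, which is scaled by transcript length, and turned these into counts normalized by total count. The authors then compared the ages with DESeq2. The deposited signal used here is the authors' mean normalized count per gene over both ages. It has no SD, and the depth of single libraries is unknown. The other 5 columns hold the authors' own comparison of the ages (fold change, its error, statistic and p-values) and were not used, so no test was made.

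Gene models, coding lengths and words of 50 bases came from GENCODE M21 of GRCm38, which matched 97.1% of the 18479 genes with a mean of at least 10 by symbol or RefSeq synonym. Words were compared on the transcript strand only. Levels were divided by the median spliced length of the coding transcripts, or of all transcripts in genes without one. Coding sequences were aligned globally with Biopython 1.88. Python 3.11.15, numpy 2.4.6, pandas 2.3.3, scipy 1.17.1 and matplotlib 3.10.9 were used, and the functions for lengths and percentiles were tested on simulated data. Every member was named, and the members and lists were chosen with earlier results of these data known. Alternatives were other minimum means, other lengths, other gene sets for percentiles and the addition of a copy. Some genes of the lists are not reported here.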

Additional observations from a re-analysis of the deposited data

How the results depend on the processing

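No paired analysis was possible because each gene has 1 mean over all mice, and for the same reason no mouse could be left out. The number of members with a sufficient mean was 47 to 49 for minimum means of 1 to 100. Dividing by the longest transcript gave shares of 23.2% for Psmb8, 6.14% for Psmb9 and 73.0% for Psme1 (of Psme1 plus Psme2), and medians per kb of 4231 for the alpha, 4707 for the constitutive beta, 3467 for the ATPase, 2507 for the non-ATPase and 1236 for the immunoproteasome subunits. Coding length gave 10.8% for Psmb9, 21.2% for Psmb10 and 75.0% for Psme1, with medians of 7443, 8646, 4270, 3028 and 2324 in the same order. Without a length the shares were 35.3% for Psmb8, 9.98% for Psmb9, 20.9% for Psmb10 and 75.7% for Psme1. Adding Psme2b-ps to Psme2 was chosen after seeing the data and was done only in the means not divided by length. On that scale it lowered the share of Psme1 from 75.7% to 48.2%, which turned the order of that pair. The median percentile of the members was 92.5 among genes with a mean above 0 and 87.2 in means not divided by length. The share of reads that the quantification divided among copies, and the lengths of the transcripts used in this tissue, are not known.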
